A study of Drosophila melanogaster with 3 samples.

Results

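Autosomal peaks that lay between genes but close to a transcription start site (TSS) were examined in a chromatin map of Squeeze (sqz) from Drosophila melanogaster embryos. A peak was taken when its summit fell outside the body of every protein-coding gene and more than 500 and up to 5000 bp from the nearest protein-coding TSS, by Ensembl gene models on dm6. This left 539 peaks, which were 10.4% of the 5194 autosomal peaks and 8.19% of all 6578 peaks in the authors' thresholded list (95% Wilson interval of the first share 9.58% to 11.2%). Of the other autosomal peaks, 1938 lay within 500 bp of a TSS and are called promoter peaks, 2216 lay inside genes beyond that distance, and the rest lay between genes farther than 5000 bp from any TSS. The X chromosome held a further 1384 peaks. Within that list, positions alone chose the members. The list itself had been thresholded by the authors on how alike peaks rank between replicates, so weaker peaks were cut before the position rule.

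The map came from chromatin immunoprecipitation and sequencing (ChIP-seq) of whole embryos of mixed sex, collected from 0 to 16 h of development, in 3 libraries that the labels number as biological replicates 1, 2 and 3. All embryos carried a transgene that expresses sqz with GFP at its C terminus, in a stable line, so the data describe the tagged protein averaged over all cells and stages. The labels disagree on 1 point: a description line speaks of an input control, but the antibody is given as sqz, the assay as ChIP-seq, and another alignment served as the control of all 3. They were read here as ChIP libraries. There was no second genotype, stage or treatment, the lists give no read counts, and depth is therefore unknown.

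Squeeze is a zinc finger transcription factor of the Krüppel type, studied mostly in neurons of the embryonic nerve cord. Sequence between genes and close to them carries many of the enhancers that switch developmental genes on in particular cells, and it also carries insulators and the starts of non-coding RNAs. In Drosophila, open regulatory sequence commonly holds A runs and GA repeats, and the GAGA factor binds the latter. A peak marks where DNA was recovered with the tagged protein; it does not show direct contact with the DNA or an effect on a gene.

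The sequences below are the 201 bases centred on the summits of 6 of the strongest near-gene peaks, shown because they differ in the 3 words that, of 22 searched, had the highest ratios of their share in the peaks to that in nearby sequence without a peak. They are the plus strand of the RefSeq Release 6 assembly (dm6), from chr3L:10226177-10226377 near scramb1, chr3R:5088015-5088215 near corto, chr3R:30764188-30764388 near zfh1, chr3L:11010469-11010669 near klu, chr2L:14023976-14024176 near hll and chr3R:12403045-12403245 near DNAlig3. Capitals mark every occurrence, on either strand, of the word AAAAAAA, the word GAGAGA and the word AAACAA. On the opposite strand the first reads as a T run, the second as TCTCTC and the third as TTGTTT, and occurrences that overlap run together.
scramb1: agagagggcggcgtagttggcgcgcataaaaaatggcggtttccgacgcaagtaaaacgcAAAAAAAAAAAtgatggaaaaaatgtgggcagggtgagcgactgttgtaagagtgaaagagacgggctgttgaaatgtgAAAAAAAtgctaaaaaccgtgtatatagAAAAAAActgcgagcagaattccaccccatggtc
corto: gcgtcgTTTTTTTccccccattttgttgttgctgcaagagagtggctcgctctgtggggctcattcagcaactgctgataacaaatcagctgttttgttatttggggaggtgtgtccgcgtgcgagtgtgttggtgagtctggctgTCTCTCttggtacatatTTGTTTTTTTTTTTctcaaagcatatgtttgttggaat
zfh1: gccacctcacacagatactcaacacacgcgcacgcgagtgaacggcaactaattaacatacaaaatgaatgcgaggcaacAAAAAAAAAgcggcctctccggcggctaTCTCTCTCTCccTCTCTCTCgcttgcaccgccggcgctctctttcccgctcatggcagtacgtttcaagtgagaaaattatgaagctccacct
klu: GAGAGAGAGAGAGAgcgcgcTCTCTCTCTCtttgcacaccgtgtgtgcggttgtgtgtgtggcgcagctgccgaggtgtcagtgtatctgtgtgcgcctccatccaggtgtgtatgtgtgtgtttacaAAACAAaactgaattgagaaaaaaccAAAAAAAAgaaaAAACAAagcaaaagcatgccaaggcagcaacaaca
hll: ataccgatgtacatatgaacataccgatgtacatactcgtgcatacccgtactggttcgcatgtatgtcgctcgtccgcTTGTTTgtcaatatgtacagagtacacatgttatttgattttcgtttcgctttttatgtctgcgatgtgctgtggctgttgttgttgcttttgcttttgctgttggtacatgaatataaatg
DNAlig3: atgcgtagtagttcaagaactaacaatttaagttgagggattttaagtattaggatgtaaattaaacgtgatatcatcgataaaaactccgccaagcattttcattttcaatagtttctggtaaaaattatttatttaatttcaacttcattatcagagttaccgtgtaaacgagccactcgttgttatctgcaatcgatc
The window near scramb1 held 3 separate A runs and neither of the other words. The corto and klu windows held all 3 words, and the zfh1 window held an A run beside blocks of GA repeats. The hll window held AAACAA alone. The DNAlig3 window held none of these words, as was also the case for the peaks near CycB, E(spl)malpha-BFM and sp3 among the 20 strongest.

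The signal is the peak strength given by the authors' caller on a scale that is not stated, and it was used only to rank peaks within a list. Signal ran from 165 to 2357 over the 539 peaks, with a median of 255 and quartiles of 199 and 358. The median was 290 for promoter peaks, 247 for peaks inside genes, 246 for intergenic peaks farther from genes and 266 on the X chromosome. Near-gene peaks made up 10 of the 100 strongest peaks in the genome and 67 of the strongest 1000, against 45 and 425 promoter peaks. The classes differ in size, with 539 near-gene peaks (8.19%) and 1938 promoter peaks among all 6578. Part of the contrast in counts therefore goes with class size.

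In the pooled list of all 3 libraries, which reaches far below the threshold, the near-gene class rose from 8.39% of autosomal peaks at ranks 1 to 1000 to 10.9% at ranks 3290 to 6578 and 14.3% at ranks 15001 to 30000. Promoter peaks moved the other way, from 53.2% to 12.4% between the first and last of these bins. The near-gene share therefore varied less with strength than the promoter share. Over the same bins, peaks inside genes rose from 32.8% to 55.9%, and intergenic peaks farther from genes from 5.63% to 17.4%. The shares make up the whole of each bin, so these rises and the promoter fall are tied together.

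**Figure D1:**
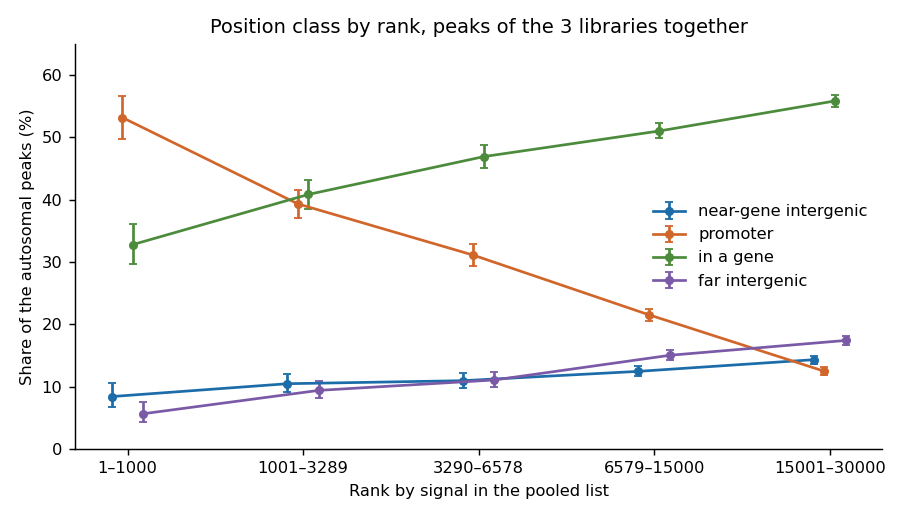
Share of autosomal peaks in each position class (vertical axis, %) by rank in the pooled list (horizontal axis); points are shares, bars are 95% Wilson intervals and cover counting error only. The near-gene intergenic line goes from 8.39% to 14.3%, and the promoter line goes from 53.2% to 12.4%.

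The strongest near-gene peak lay 1037 bp upstream of scramb1, which encodes a phospholipid scramblase, on chromosome 3L (summit 10226277, dm6, as for all positions). Its signal was 2357, and it ranked 30 in replicate 1, 2 in replicate 2 and 3 in replicate 3. Its gap, 18079 bp long, reaches the odorant receptor gene Or67c. The next, 528 bp upstream of Asator on chromosome 4 (summit 489522, signal 1971), ranked 51, 13 and 11 in replicates 1, 2 and 3. The third lay on chromosome 2L between hll and NimC3, the latter a gene of the Nimrod family of hemocyte receptors (summit 14024076, signal 1912), and ranked 26, 16 and 27. Those 3 peaks stood within the strongest 51 of every library.

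Psc and CycB followed in order of signal. A peak 4196 bp upstream of Psc, a Polycomb group gene, ranked 33, 39 and 45 in replicates 1, 2 and 3 (chromosome 2R, summit 12985190, signal 1643). A peak in the 1340-bp gap between the ends of CycB, the mitotic cyclin B, and blw, a subunit of the mitochondrial ATP synthase, ranked 28, 65 and 48 (summit 22802949, signal 1585). Lower on the list, the peak 1043 bp upstream of corto, which encodes a chromatin protein, ranked 161, 40 and 73 (chromosome 3R, summit 5088115, signal 1361). The scramb1, hll, Asator, Psc and CycB peaks had the 5 best summed ranks over the libraries.

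The peaks nearest zfh1, klu and zfh2 were also among the 20 strongest. All 3 genes encode zinc finger factors, but the share of such genes over all autosomal genes was not counted. Their grouping here is a description only. The peak 1638 bp upstream of zfh1, a zinc finger homeodomain factor of mesoderm and motor neurons, ranked 98, 80 and 146 in replicates 1, 2 and 3 (chromosome 3R, summit 30764288, signal 1240). The peak 1381 bp upstream of klu, a zinc finger factor of neural precursors, ranked 214, 125 and 172 (chromosome 3L, summit 11010569, signal 1062). The peak 3902 bp upstream of zfh2, a large zinc finger homeodomain factor, ranked 250, 197 and 250 (chromosome 4, summit 497908, signal 939). These 3 peaks kept within the strongest 250 of each library.

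Replicate 1 gave the widest departures among the 20 strongest. The peak near CG10939, 218 bp from the start of tRNA:Ala-TGC-2-1, ranked 432 in replicate 1 against 32 and 24 in replicates 2 and 3. The peak near CG6168 ranked 1639 against 115 and 268, and the peak near CG44227 ranked 983 against 110 and 173. The peak near sp3 went the other way, at 118 in replicate 1 against 328 and 565. The remaining peaks of the 20 were nearest DNAlig3, jp, E(spl)mgamma-HLH, CG31668, E(spl)malpha-BFM, NimC3 and Or67d, a receptor for the pheromone cis-vaccenyl acetate.

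**Figure D2:**
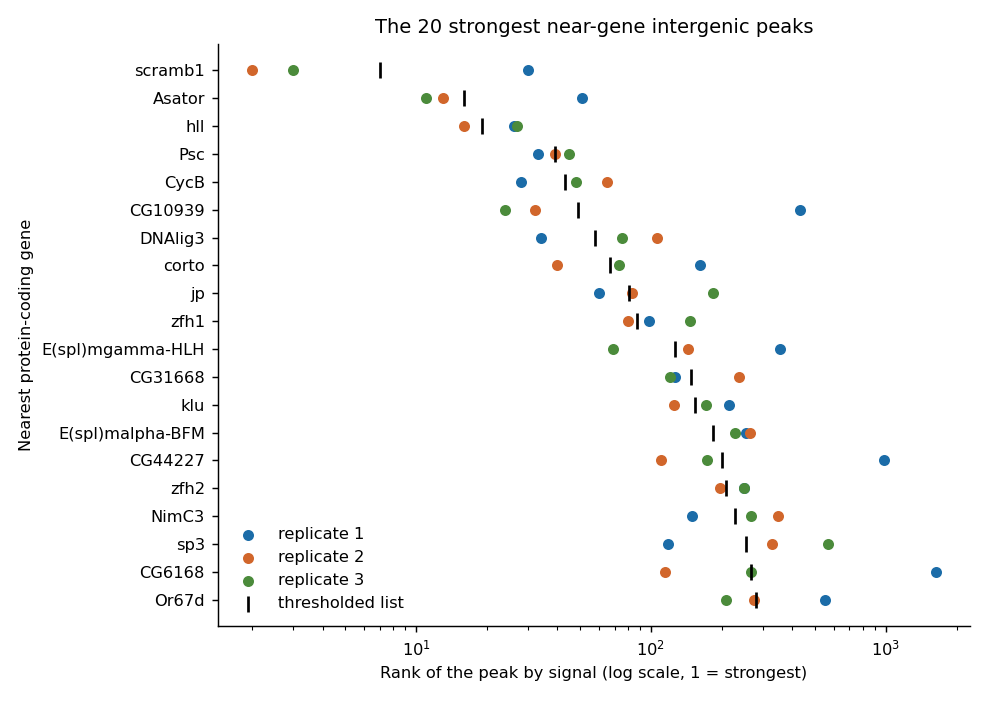
Rank of each of the 20 strongest near-gene intergenic peaks (rows, named by the nearest protein-coding gene) in each library (points) and in the thresholded list (ticks); the horizontal axis is logarithmic and 1 is the strongest peak. The scramb1, Asator and hll peaks stand within the strongest 51 of all 3 libraries, and the replicate 1 point stands far to the right for CG10939, CG44227 and CG6168.

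Of the 539 peaks, 254 had a summit within 100 bp among the 6578 strongest peaks of all 3 libraries. That is 47.1% (95% Wilson interval 42.9% to 51.3%), beside 47.8% of all autosomal peaks. A further 185 were met in 2 libraries, 94 in 1 and 6 in none. With the thresholded list cut by strength into 4 equal parts, 90.9% of the near-gene peaks in the strongest part were met in all 3 libraries, then 70.6%, 33.1% and 4.17% in the following parts. Other autosomal peaks gave 90.0%, 69.5%, 29.8% and 2.22%. The strongest near-gene peak met in none lay 1737 bp upstream of CG34459, with a signal of 177 and ranks of 7188, 6977 and 7381, each just past the 6578 strongest.

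Each library separately met 66.8%, 81.4% and 79.2% of the near-gene peaks for replicates 1, 2 and 3. Their mean was 75.8% ± 7.90 (SD, n = 3). The other autosomal peaks were met at 68.1%, 80.1% and 78.6%. The differences were -1.35, 1.36 and 0.66 percentage points, which lie on both sides of 0 (two-sided exact sign-flip permutation test over the 3 libraries, p = 0.75; the smallest p that 3 libraries allow is 0.25). Against peaks inside genes the difference was positive in all 3 libraries, at 3.03, 0.851 and 1.15 points (exact p = 0.25, the smallest possible). Against promoter peaks it was -7.51, 1.98 and 0.635 points, so replicate 1 alone met fewer near-gene peaks than promoter peaks. Over the 8 comparisons of this kind, no p adjusted by Benjamini-Hochberg was below 0.857.

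With the full list of 30000 peaks per library, the shares rose to 89.2%, 97.6% and 95.9%, a mean of 94.2% ± 4.42 (SD, n = 3). In all, 452 of the 539 peaks had a summit within 100 bp in every full list, and none was missing from all 3. Replicate 1 lacked 58 of them, replicate 2 lacked 13 and replicate 3 lacked 22. Across peaks present in both lists, ranks of replicates 2 and 3 had a Spearman rho of 0.64 (505 peaks), and replicate 1 had 0.53 with each of the others (468 and 464 peaks). These coefficients describe peaks that share a control alignment, and peaks are not independent replicates.

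**Figure D3:**
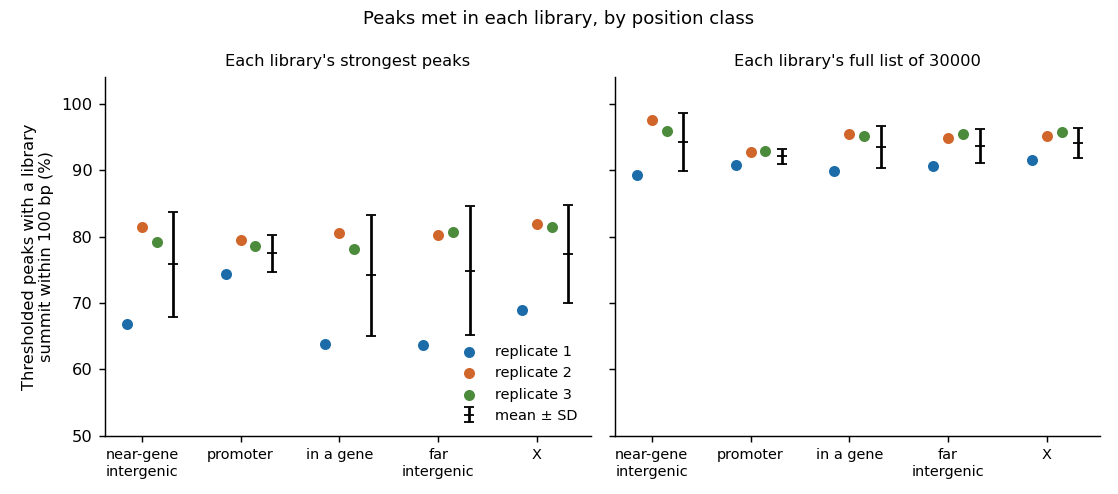
Share of thresholded peaks with a summit within 100 bp in each library (vertical axis, %, starting at 50), by position class; points are libraries and bars are mean ± SD over the 3 libraries. The left panel uses the 6578 strongest peaks of each library and the right panel the full list of 30000. Replicate 1 is the lowest point in every class of both panels, and the near-gene class has means of 75.8% and 94.2%.

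To read positions against the space available, every autosomal base that the rule could have taken was counted. This eligible sequence came to 11948867 bp, 10.8% of the autosomes, and held 45.1 peaks per Mb. Chromosome 3L had the highest density, with 161 peaks or 55.5 per Mb, then 2L with 136 (47.1 per Mb), 2R with 113 (43.9 per Mb), 3R with 125 (36.0 per Mb) and chromosome 4 with 4 peaks (35.8 per Mb). The 4 peaks on chromosome 4 were those near Asator and zfh2 and 2 upstream of ci, which encodes the transcription factor at the end of the Hedgehog pathway. The stronger of the ci peaks (summit 59240, signal 319) ranked 1410, 3897 and 3273 in replicates 1, 2 and 3.

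Gaps between divergently transcribed genes, where both neighbours start, were the densest. They held 224 peaks, 41.6% of the set (95% Wilson interval 37.5% to 45.8%), in 31.8% of the eligible sequence, or 59.0 per Mb. Gaps between genes in tandem held 241 peaks (39.0 per Mb), and gaps where both neighbours end held 74 (38.1 per Mb). Upstream positions had 400 peaks, 74.2% of the set in 69.7% of the eligible sequence. Every base of a divergent gap is upstream of its nearest TSS, and in tandem gaps the densities on the upstream and downstream sides were 39.2 and 38.5 per Mb. The excess on the upstream side was thus found in divergent gaps and not in tandem ones. Median signal was 269 in divergent gaps, 245 in tandem gaps and 255 in convergent gaps.

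Density varied less with distance from the TSS than with the type of gap. Density was 48.7 per Mb from 500 to 1000 bp, 48.4 from 1000 to 2000 bp, 46.0 from 2000 to 3000 bp, 39.4 from 3000 to 4000 bp and 41.8 from 4000 to 5000 bp. The highest of the 10 values by side and distance was 55.4 per Mb, upstream from 1000 to 2000 bp, and the lowest was 27.8 per Mb, downstream at the same distance (22 peaks). Median signal was between 235 and 260 in all 5 distance bins, and the Spearman rho of signal with distance was -0.086 across the 539 peaks. The strongest peaks of the bins were those of Asator, scramb1, hll, CycB and Psc, from near to far.

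**Figure D4:**
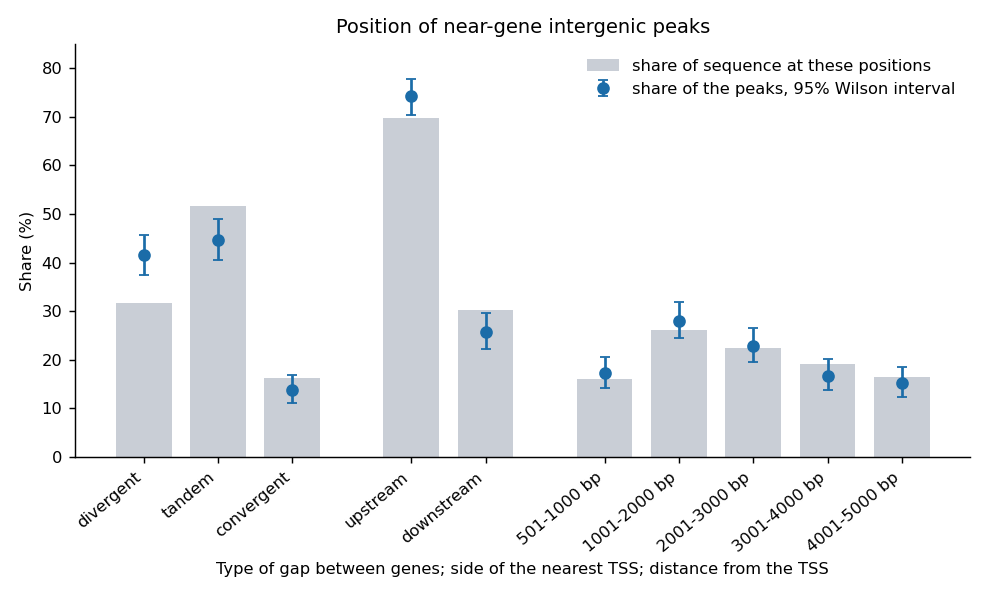
Share of the 539 near-gene intergenic peaks (points with 95% Wilson intervals for counting error) and share of the sequence at the same positions (grey bars) by type of gap, side of the nearest TSS and distance from it; the vertical axis is in %. The divergent gaps hold 41.6% of the peaks in 31.8% of the sequence, and the tandem gaps hold 44.7% in 51.7%.

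At the limits of the distance rule, the closest peaks kept were near stv (505 bp, signal 309), tej (508 bp, 173) and Fatp3 (509 bp, 255), and the closest left out were near fkh (497 bp, 210), CG10479 (495 bp, 510) and CG43066 (491 bp, 391). At the far limit, the last peaks inside were near Spn28B and CG42807 (both 4982 bp, signals 172 and 303) and rpr (4980 bp, 255). The first outside were near CG4218 (5014 bp, 331), CG9300 (5031 bp, 186) and CG5550 (5048 bp, 193). Signal did not change in one direction across either limit.

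The 539 peaks had 384 nearest genes, 3.27% of the 11749 autosomal protein-coding genes and 6.99% of the 5492 with any eligible sequence. Most of these genes, 278, had 1 peak, 71 had 2, 26 had 3 and 9 had 4 or more. Peaks also shared gaps: 350 gaps held them, and 42 gaps with 3 or more peaks held 157. Summits of 94 peaks (17.4%) lay under 500 bp from another summit.

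The fullest gap held 7 peaks, between Cyt-c1L and eEF1gamma on chromosome 3R. Of those, 2 lay 102 and 323 bp from the start of mir-279, a microRNA that acts in the choice of olfactory neuron fate, inside its host RNA lncRNA:CR31044. The peak at 102 bp (signal 313) ranked 3007, 1418 and 7897 in replicates 1, 2 and 3. The peak at 323 bp (signal 318) ranked 2173 and 2854 in replicates 1 and 3 and had no summit within 100 bp in the full list of replicate 2. Those values straddle the 6578 strongest, so this pair was not met in all 3 libraries.

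The gap between mtSSB and tara held 6 peaks, 5 of them nearest tara, a gene of the trithorax group. The strongest, 1136 bp upstream of tara (signal 798), ranked 651, 278 and 313 in replicates 1, 2 and 3. Gaps with 6 peaks were also found between COX7AL2 and CG31668 (5808 bp), between Hacd1 and the rhodopsin gene Rh5 (5886 bp), and between CG44362 and CG7560. The strongest peak near Rh5, 728 bp upstream (signal 822), ranked 482, 229 and 282. The first 2 of these 3 gaps held over 10 peaks per 10 kb, at 10.3 and 10.2.

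The gap beyond sqz itself, between sqz and CG14282 on chromosome 3R, held 5 peaks, all nearest CG14282. The strongest (summit 19174712, signal 806) ranked 223 and 336 in replicates 2 and 3 and had no summit within 100 bp in the full list of replicate 1. Its neighbour 201 bp away (signal 415) ranked 613, 2311 and 1944 in replicates 1, 2 and 3. The line carries a transgene with sqz sequence, and the part of extra copies of that sequence in these peaks was not tested.

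The Enhancer of split complex, a cluster of Notch target genes on chromosome 3R that encodes basic helix-loop-helix repressors and Bearded family proteins, had 11 peaks nearest its genes. The strongest (summit 26002623, signal 1116), between the ends of E(spl)mgamma-HLH and E(spl)mbeta-HLH, ranked 356, 144 and 69 in replicates 1, 2 and 3. The peak 1843 bp upstream of E(spl)malpha-BFM (signal 984) ranked 253, 264 and 229, and the peak 2132 bp upstream of E(spl)m4-BFM (signal 679) ranked 1861, 369 and 327. Of the 11 peaks, 7 were met in all 3 libraries, beside 47.1% of all 539 near-gene peaks. The 11 were not set against the eligible sequence of the complex, so the count carries no density. Some were close neighbours: the strongest had another summit 200 bp away, and 2 between E(spl)m4-BFM and E(spl)m5-HLH lay 209 bp apart. The 2 with no summit in the full list of replicate 1 lay close to stronger summits, near E(spl)m4-BFM and E(spl)mgamma-HLH. The complex was named for its values and not by a rule.

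Genes of signalling and patterning lists had more of these peaks, per length of eligible sequence, than autosomal genes in general. The 18 developmental lists held 179 autosomal genes, counted without repeats, of which 39 had a near-gene peak nearest (21.8%, 95% Wilson interval 16.4% to 28.4%), beside 3.27% of all autosomal genes. Only genes with eligible sequence can have one. These were 136 of the 179, so 39 of 136 stood beside 6.99% of the 5492 autosomal genes with such sequence. The listed genes had 61 peaks in 503 kb of eligible sequence, 121 per Mb beside 45.1 per Mb in all of it. The lists were chosen with earlier results of these data known, so this count is a description. By developmental list, density ran from 37.1 per Mb for Hox genes and cofactors to 323 for the EGF receptor list. Each list had 9 peaks or fewer. The counts by list given below have the same 3.27% of all autosomal genes, 6.99% of those with eligible sequence and 45.1 per Mb as their background. Of the 78 autosomal ribosomal protein genes, 2 had such a peak, RpS23 and RpL13, at 30.7 per Mb, a value that rests on 2 peaks. A promoter peak was found for 44 of these 78 genes and for 85 of the 179 genes of the developmental lists. Over all autosomal protein-coding genes that share was 16.3% (1913 of 11749).

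Among transcription factors with a BTB domain, 5 of 10 autosomal genes had a peak nearest, 9 peaks in all. The strongest was 4957 bp upstream of lola, an axon guidance regulator (signal 598), and ranked 1198 and 566 in replicates 1 and 2 with no summit within 100 bp in the full list of replicate 3. The gene chinmo, a regulator of neuronal temporal identity, had 4 peaks, and the strongest (signal 564) ranked 782, 849 and 590 in replicates 1, 2 and 3. The other genes were psq, bab2 and rib, with signals of 307, 238 and 189 at their strongest. The bab2 peak ranked 4055, 5160 and 4672, within the strongest 6578 of every library like those of chinmo and psq, while the lola peak rested on 2 libraries.

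In the Hedgehog and segment polarity list, 5 of 14 genes had a peak nearest. The forkhead factor gene slp2 led, with a peak 4331 bp upstream (signal 723) that ranked 184, 545 and 750 in replicates 1, 2 and 3. Its partner slp1 had a peak (signal 351) ranked 2093, 2502 and 2191. The T-box gene H15 had 2 peaks (strongest 421), ci had 2, and the Hedgehog receptor gene ptc had 1 (signal 189; ranks 4416, 9061 and 6283). Of the gap and pair-rule list, slp1 and slp2 recurred beside eve and kni, 4 of 16 genes in all, at 54.1 peaks per Mb, which is near the 45.1 of all eligible sequence.

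In the Notch list, 5 of 16 autosomal genes had a peak nearest. Besides 3 genes of the Enhancer of split complex, these were fng, which encodes a glycosyltransferase that modifies Notch (signal 234; ranks 3325, 5207 and 5981), and Ser, which encodes a Notch ligand (194; ranks 10212, 4661 and 6431). In the EGF receptor list, 3 of 13 did. The Ets repressor gene aop had a peak of 477 (ranks 694, 2505 and 901), the cell adhesion gene ed one of 349 (3893, 1670 and 2393) and the ligand gene vn one of 200 (8228, 6251 and 3764). The Wingless list had 2 of 13, the receptor gene fz (signal 369; ranks 1123, 2902 and 1706) and Notum (168), a secreted Wnt inhibitor. The BMP list had 1 of 14, the inhibitory Smad gene Dad (172). The JAK-STAT and Toll list had 1 of 6, the receptor gene Tl (268). Peaks of fz and aop ranked within the strongest 2902 of each library, and those of Ser, E(spl)m3-HLH, vn, Notum, Dad and Tl ranked past 6578 in at least 1.

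In the nervous system lists, 3 of 10 genes of the Apterous cluster had a peak nearest, a list named for the nerve cord neurons whose fate depends on sqz. The nuclear factor gene dac had a peak of 360 that ranked 2386, 921 and 11852 in replicates 1, 2 and 3, eya one of 220 (11471, 6351 and 2594) and cas, also a temporal factor of neuroblasts, one of 184 (6276, 11396 and 3737). Each of the 3 ranked past 6578 in 1 library. The POU gene nub was the other of 2 of 7 temporal factors (signal 248). Neuroblast and proneural genes gave 3 of 13, insc, tap and D, with signals of 339, 279 and 205, and the glial list gave gcm alone (300; ranks 3192, 2499 and 3755), 1 of 7.

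In the trachea and epidermis list 4 of 9 genes had a peak nearest, namely salm, vvl, salr and rib, and salm was the strongest (349; ranks 1454, 2467 and 1983). The endodermal factor gene GATAe had 4 peaks, all upstream, with signals from 175 to 271, and gcm was the other of 2 of 8 GATA and hemocyte genes. The visceral mesoderm gene bin (466) was the only one of 6 gut genes and of 11 mesoderm and muscle genes. Its strongest peak had no summit within 100 bp in the full list of replicate 3, but the 2 summits near bin lay only 205 bp apart. From the same 2 peaks, density was 81.0 per Mb in the gut list and 51.4 in the mesoderm and muscle list. The Hox and cofactor list gave hth (208), 1 of 9 at 37.1 peaks per Mb, and the ecdysone list gave Blimp-1 (240), 1 of 11. The Hox density rests on that 1 peak and cannot be told from the 45.1 per Mb of all eligible sequence. All 9 genes of the list had eligible sequence, and 1 of 9 stood beside 6.99% of the autosomal genes with such sequence.

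The nearest TSS of a near-gene peak had a promoter peak of its own more often than autosomal TSSs in general. For 149 of the 539 peaks (27.6%, 95% Wilson interval 24.0% to 31.6%) the nearest TSS also carried a promoter summit, while such TSSs were 15.7% of the 15977 autosomal TSSs and were nearest to 9.60% of the eligible sequence. Density was 130 peaks per Mb beside a TSS with a promoter summit and 36.1 per Mb elsewhere. By gene, 124 of the 384 nearest genes (32.3%) had a promoter summit at any TSS, against 634 of the 5108 genes (12.4%) that had eligible sequence and no near-gene peak. The comparison by length of sequence was chosen after the counts by TSS were seen.

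Starts of non-coding RNAs were also more frequent at these peaks than in the sequence around. Summits of 82 peaks (15.2%, 95% Wilson interval 12.4% to 18.5%) lay within 500 bp of a non-coding start, against 6.40% of the eligible sequence, at a median distance of 171.5 bp. Long and other non-coding RNAs made up 66 of the 82, tRNAs 8, antisense RNAs 4 and microRNAs 2, with 1 snoRNA and 1 snRNA. Median signal was 274.6 at these starts and 250.9 away from them, and 41.5% against 48.1% were met in all 3 libraries, with overlapping intervals. Only 1 peak lay in an annotated transposable element, near ed, while 5.78% of the eligible sequence did. Eligible sequence counts every base, including any where reads could not be placed, and the aligner and filters are unknown. Whether the placing of reads set this low count was not tested.

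The strongest peak at a non-coding start was that near hll, 23 bp from the start of lncRNA:CR31840. A peak 12 bp from the start of Uhg4, a host gene of small nucleolar RNAs (signal 737), ranked 316, 383 and 576 in replicates 1, 2 and 3. A peak 153 bp from the start of lncRNA:Hsromega, the heat shock RNA of nuclear speckles (signal 594), ranked 541, 1739 and 552. The 2 peaks at lncRNA:iab8, a transcript of the bithorax complex, had summits only 199 bp apart. The stronger (signal 379) ranked 2452 and 1525 in replicates 2 and 3 with no summit within 100 bp in the full list of replicate 1. Its neighbour (306) ranked 1314, 3008 and 6203 in replicates 1, 2 and 3, so replicate 1 did have a summit close by. These RNAs were named after their values were seen.

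Of the 22 words searched, the run AAAAAAA had the highest ratio of its share in the peaks to that in peak-free sequence, 3.06. It was found, on either strand, in the 201-bp windows of 286 of the 539 peaks (53.1%, 95% Wilson interval 48.8% to 57.2%), against 17.3% of 57925 windows of the same length in eligible sequence free of peaks. In windows 1000 bp away from the summit, available for 530 peaks, the share was 18.5%. The word was found in 45.6% of promoter peaks, 59.5% of peaks inside genes, 58.5% of intergenic peaks farther from genes and 63.4% of X chromosome peaks. The Wilson interval for near-gene peaks overlapped that for intergenic peaks farther from genes (54.1% to 62.7%), and these differences between classes were not tested. Base composition was similar, with a median GC content of 39.8% in the peaks and 40.8% in peak-free eligible windows. The words compared differ in length, and this run has 7 letters where GAGAGA and AAACAA have 6. The shorter run AAAAAA was in 71.2% of the peaks and 34.9% of the peak-free windows. Its ratio was 2.04, beside 1.94 for GAGAGA.

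Longer runs, counted after the word had been seen, were rarer and differed by a higher ratio. A run of 9 or more A or T bases stood in 29.5% of the peaks and 7.06% of the peak-free windows, and a run of 12 or more in 8.53% and 1.92%. Runs of 9 or more stood in 19.5% of promoter peaks, 36.7% of peaks inside genes, 38.5% of intergenic peaks farther from genes and 43.1% of X chromosome peaks. The longest run had a median of 7 bases in the peaks and 5 in the peak-free windows. The share of peaks with AAAAAAA was 61.2%, 49.6%, 47.4% and 54.1%, in order, from the strongest to the weakest of 4 equal parts of the near-gene peaks; the 95% Wilson intervals of all 4 overlap. It was 56.2% where the nearest TSS had no promoter summit and 45.0% where it had one. It was 53.6%, 52.7% and 52.7% in divergent, tandem and convergent gaps.

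The A runs were centred on the summits. Occurrences of AAAAAAA, overlapping ones included, came to 13.3 per kb per peak in the 50 bp before the summit and 11.8 in the 50 bp after it, and to 2.52 and 3.75 at 450 to 500 bp on the left and right. The word AAACAA rose less, from 2.67 and 2.19 at those outer bins to 3.49 and 3.82 beside the summit. The word GAGAGA did not peak at the summit. It stood at 1.04 on both sides of it and was highest, at 1.93, in the bin 200 to 250 bp to the left.

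**Figure D5:**
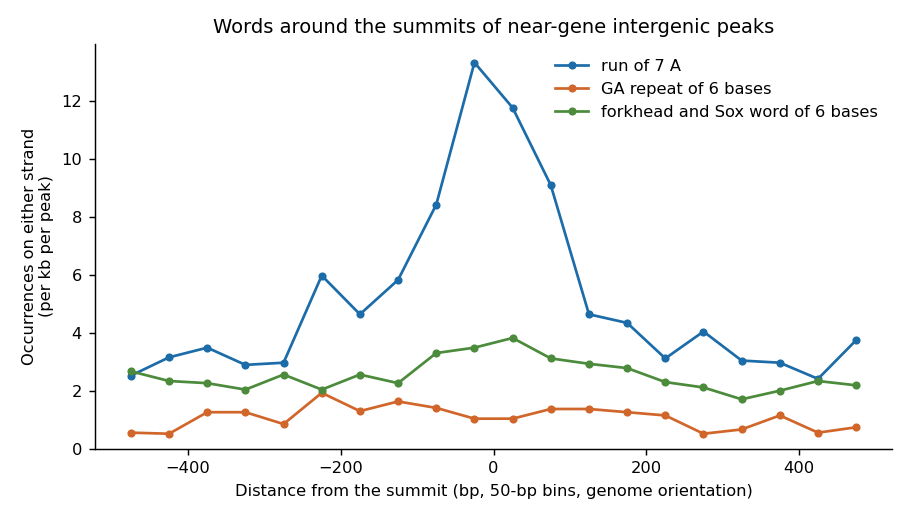
Occurrences of 3 words on either strand (vertical axis, per kb per peak, overlapping occurrences counted) in 50-bp bins around the 539 summits (horizontal axis, bp). The run of 7 A reaches 13.3 in the bin left of the summit and falls below 4 in the outer bins, the forkhead and Sox word stays between 1.71 and 3.82, and the GA repeat is highest away from the summit, at 1.93.

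GAGAGA, the core of the word that the GAGA factor binds, was in 12.1% of the peaks (95% Wilson interval 9.58% to 15.1%), 6.21% of the peak-free windows and 7.17% of the windows 1000 bp away. Promoter peaks had it in 17.2%, peaks inside genes in 15.3%, intergenic peaks farther from genes in 11.6% and X chromosome peaks in 17.0%. AAACAA, a word of forkhead and Sox factors, was in 46.0% of the peaks and 32.4% of the peak-free windows. It was not particular to them, with 41.3% of promoter peaks, 48.3% of peaks inside genes, 41.3% of intergenic peaks farther from genes and 46.3% of X chromosome peaks. At least 1 of the 3 words stood in 78.3% of the peaks and 46.5% of the peak-free windows. A word in a window is not a binding site, and its presence says nothing of which protein was there.

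Words of promoters were not more frequent here. TATCGA, part of the site of the boundary and promoter factors DREF and BEAF-32, was in 5.75% of the near-gene peaks and 6.49% of the peak-free windows, against 15.4% of promoter peaks. GGTCAC, a part of a common Drosophila core promoter element, was in 2.78% and 3.95%, against 9.49% of promoter peaks. The E-box CATCTG was in 5.57% of near-gene peaks and 8.59% of the peak-free windows. CAGGTA, the core of the Zelda site, was in 3.90% and 4.03%. Peaks inside genes had TATCGA in 4.96% and GGTCAC in 2.44%, and intergenic peaks farther from genes had them in 3.19% and 4.59%. The near-gene peaks thus shared the A runs of the other classes. Like peaks inside genes or farther from them, they did not share the excess of TATCGA and GGTCAC in promoter peaks.

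A count over all words of 8 letters held by at least 20 of the peaks, 309 words in all and made after the set words had been seen, gave 2 kinds of leading word. GAGCGAGA was in 4.27% of the peaks and 0.653% of the peak-free windows, a ratio of 6.54, and AGAGCGAG, which overlaps it, in 3.71% and 0.599%. A runs with a G or C at the end followed, such as AAAAAACG in 9.65% and 2.08%, and GAAAAAAA in 24.5% and 5.50%. All were sought on both strands. The words were kept and ordered by their counts in these same peaks, which favours high ratios. The ratios are therefore descriptive only.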

How the data were processed

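Peak lists on dm6 were made by the authors for each of the 3 libraries and for the libraries together, with 1 control alignment for all, per the file headers. A thresholded list came from them by the irreproducible discovery rate (IDR), a measure of how alike peaks rank between replicates. Every list before thresholding has 30000 peaks. For the aligner, the caller, filters and the IDR threshold, the sources used here give nothing. The deposited signal is the authors' own value per peak and served only to rank and describe peaks. Summits are the start plus the deposited offset, counted from 1.

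The 13945 protein-coding genes used are those of BDGP 6.54 in Ensembl release 115; sequence was from the RefSeq Release 6 assembly. A library met a peak when it had a summit within 100 bp. Shares have 95% Wilson intervals, which cover counting error only and treat clustered peaks as independent. Libraries were compared by an exact sign-flip permutation test. Eligible sequence was every autosomal base that meets the rule, and windows of 201 bp tile its peak-free stretches. The position rule, the type of gap, the word search, the overlap of summits and the sign-flip test were checked on made-up data. Python 3.11.15, numpy 2.4.6, pandas 2.3.3, scipy 1.17.1 and matplotlib 3.10.9 were used.

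Named peaks are the 20 strongest, the strongest per chromosome and distance bin, the 5 best summed ranks, the strongest met in no library, the 5 fullest gaps and up to 3 genes per list; others were chosen after their values were seen. The members and the lists were chosen with earlier results of these data known.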

Additional observations from a re-analysis of the deposited data

How the results depend on the processing

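No paired analysis was possible because there is 1 group and no other to pair it with; the sign-flip test compares peak classes within each library. Of 89 recomputed values of 12 results, 59 stayed within the interval, spread or 1.5 times of the value reported, 28 moved and 2 changed sign. RefSeq gene models gave the same 539 peaks. The upstream share became 79.5% with a lower bound of 250 bp, 79.3% with an upper bound of 3000 bp, 69.2% with the upper bound doubled and 69.7% with non-coding genes counted as genes, where the divergent share became 33.5%. The stronger part of the thresholded list (ranks to 3289) left 253 peaks, 196 nearest genes, a median signal of 366, a divergent share of 46.2%, AAACAA in 41.5% and a mean library share of 92.9%. Peaks met in all 3 libraries left 254 peaks, 204 genes, a median signal of 348 and AAACAA in 39.8%. The mean library share was 94.2% with full lists and 66.0% within 50 bp. The difference from other autosomal peaks, 0.223 points, was -1.26 within 200 bp and ran from -0.346 to 1.01 with a replicate left out, the lowest without replicate 2.

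A promoter summit at the nearest TSS was found for 15.4% within 250 bp (11.4% of autosomal TSSs), 35.1% within 1000 bp (20.3%) and 57.9% with all pooled peaks (30.7%). In windows of 50 bp each side, AAAAAAA stood in 32.8%, GAGAGA in 6.12% and AAACAA in 27.5% of the peaks, against 9.16%, 3.09% and 17.7% of peak-free windows; with 150 bp they stood in 60.7%, 17.4% and 57.1%, against 24.7%, 9.09% and 44.1%. Non-coding starts were found for 10.02% within 250 bp and 22.8% within 1000 bp. The last 2 settings, and words counted once per gap, were chosen after seeing the data. Read depth is unknown, all lists share 1 control, and the thresholded list was made from all 3 libraries, so leaving out a replicate changed the shares and not the members.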
